A study of Rattus norvegicus with 17 samples.

Results

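The 10 genes described here belong to the cardiac calcium cycle and were measured on 17 microarrays of cultured neonatal rat ventricular myocytes: Ryr2, Trdn, Casq2 and Jph2 of the calcium release unit, Atp2a2, Pln and Sln of calcium uptake, and Cacna1c, Cacnb2 and Slc8a1 of the cell membrane. They were chosen by name for their role, by a rule that uses no measured value although earlier results of these data were known, and all 10 of 10 were measured, each by 1 probe set, among 14506 named genes and 29214 probe sets. The cells were Sprague-Dawley rat ventricular myocytes, labelled as a culture 5 days old. Nocturnal hemodialysis (NHD) is a dialysis done overnight during sleep, and the series asked how plasma taken before and after NHD affects gene expression in these cells. The sample titles and descriptions do not say whether before and after refer to a single session or to a course of NHD. The groups were phenylephrine (2 arrays), plasma taken after NHD (6 arrays), plasma taken before NHD (6 arrays) and control plasma (3 arrays). Phenylephrine is an alpha-1 adrenergic agonist widely used to make cultured myocytes hypertrophic. The uremic plasma, before and after NHD, was added at 10%. The labels do not give the share of control plasma, the dose or medium of the phenylephrine cultures, the length of exposure or the number of plasma donors. Replicates are called biological in the titles, without saying what differs between them, so the p-values measure the spread between these arrays, part of which may be technical. The dissociated cultures lack the loading and innervation of a heart.

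In a heart muscle cell, depolarisation opens L-type calcium channels, and the calcium that enters opens ryanodine receptors in the sarcoplasmic reticulum, which release the larger part of the calcium that drives contraction. The reticulum pump then takes calcium back up, while the sodium-calcium exchanger moves the rest out of the cell. Neonatal myocytes have few transverse tubules and an immature reticulum, and depend more on calcium entry across the cell membrane than adult ones.

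Promoter sequences were read for members that differ in their response: Ryr2 and Atp2a2, which rose with plasma taken after NHD, Trdn, which fell, and Casq2, which did not pass the test in any comparison. Each is the 250 bases before the annotated start in RefSeq's rat assembly GRCr8, printed 5′ to 3′ on the gene's strand. Ryr2 lies at chr17:63081277-63081526 on the plus strand, Atp2a2 at chr12:39733269-39733518 on the plus strand, Trdn at chr1:26229600-26229849 on the minus strand and Casq2 at chr2:192214306-192214555 on the plus strand. Capitals mark GGGCGG or its reverse complement CCGCCC (a GC box), CANNTG (an E-box) and the MEF2 motif, searched on both strands.
Ryr2: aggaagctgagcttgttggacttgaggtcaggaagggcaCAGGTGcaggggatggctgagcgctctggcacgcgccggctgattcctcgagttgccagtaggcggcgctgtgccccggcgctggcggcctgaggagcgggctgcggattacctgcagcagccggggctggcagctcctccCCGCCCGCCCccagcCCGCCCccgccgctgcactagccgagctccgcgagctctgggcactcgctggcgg
Atp2a2: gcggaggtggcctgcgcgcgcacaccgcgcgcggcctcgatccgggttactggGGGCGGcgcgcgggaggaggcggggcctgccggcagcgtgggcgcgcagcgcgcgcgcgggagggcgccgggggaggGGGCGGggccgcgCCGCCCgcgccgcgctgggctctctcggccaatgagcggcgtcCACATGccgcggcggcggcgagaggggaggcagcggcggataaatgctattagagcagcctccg
Trdn: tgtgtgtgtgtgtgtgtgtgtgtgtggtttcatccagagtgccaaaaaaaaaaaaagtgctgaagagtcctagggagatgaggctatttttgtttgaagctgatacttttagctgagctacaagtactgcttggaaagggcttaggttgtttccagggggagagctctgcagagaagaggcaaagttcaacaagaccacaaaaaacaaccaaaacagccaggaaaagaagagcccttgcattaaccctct
Casq2: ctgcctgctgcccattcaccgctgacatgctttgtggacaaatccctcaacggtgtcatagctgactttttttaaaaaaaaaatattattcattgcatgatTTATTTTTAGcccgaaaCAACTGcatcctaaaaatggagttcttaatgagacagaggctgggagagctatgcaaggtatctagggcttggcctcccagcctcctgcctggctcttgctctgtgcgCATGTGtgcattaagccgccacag
The Ryr2 and Atp2a2 windows are rich in G and C (72.0% and 80.0%) and hold 3 GC boxes each, of which a pair overlap in Ryr2, and 1 E-box each. The Trdn window (44.0% G and C) holds no GC box, E-box or MEF2 motif, and the Casq2 window (46.4%) holds 2 E-boxes and 1 MEF2 motif. Of 33469 windows of the same length over all annotated starts, 30.5% hold a GC box, 65.5% an E-box and 3.0% a MEF2 motif, and the median G and C content is 51.2%. Across members, 9 of 10 had a window in the table, and Sln is not shown. The Pln, Slc8a1, Cacna1c and Jph2 windows hold no GC box (44.0%, 35.2%, 54.4% and 57.2% G and C), and Cacnb2 has 2 annotated starts, one with 2 overlapping GC boxes (73.2%) and one with none (45.6%). Of these members, Jph2 and Cacnb2 also rose with plasma taken after NHD. A match describes the letters only.

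The deposited values are log2 intensities after robust multi-array average (RMA) normalisation, from 1.28 to 14.29, and array medians lay between 6.89 and 7.03. Of the variance over all probe sets, 45.7% lay on the first principal component. On it the phenylephrine arrays lay at 33.64 and 35.66 and the after NHD arrays from 15.15 to 37.20. The before NHD arrays spread from -66.50 (replicate 5) to 40.85 (replicate 6), and the control plasma arrays lay from -72.24 to -50.31. The arrays most alike of all pairs were after NHD replicate 4 and before NHD replicate 4 (SD of their difference 0.205). All 10 members were above the array median on every array. A level of one gene is not set against that of another, since probe sets bind differently. The 12 cardiomyocyte marker genes were bright on all arrays, with a mean log2 level of 12.97 and 12.98 on phenylephrine arrays, 13.03 to 13.17 after NHD, 12.68 to 13.07 before NHD and 12.67 to 12.69 with control plasma. In bulk RNA, fewer cells of a type and less RNA per cell cannot be told apart.

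**Figure D1:**
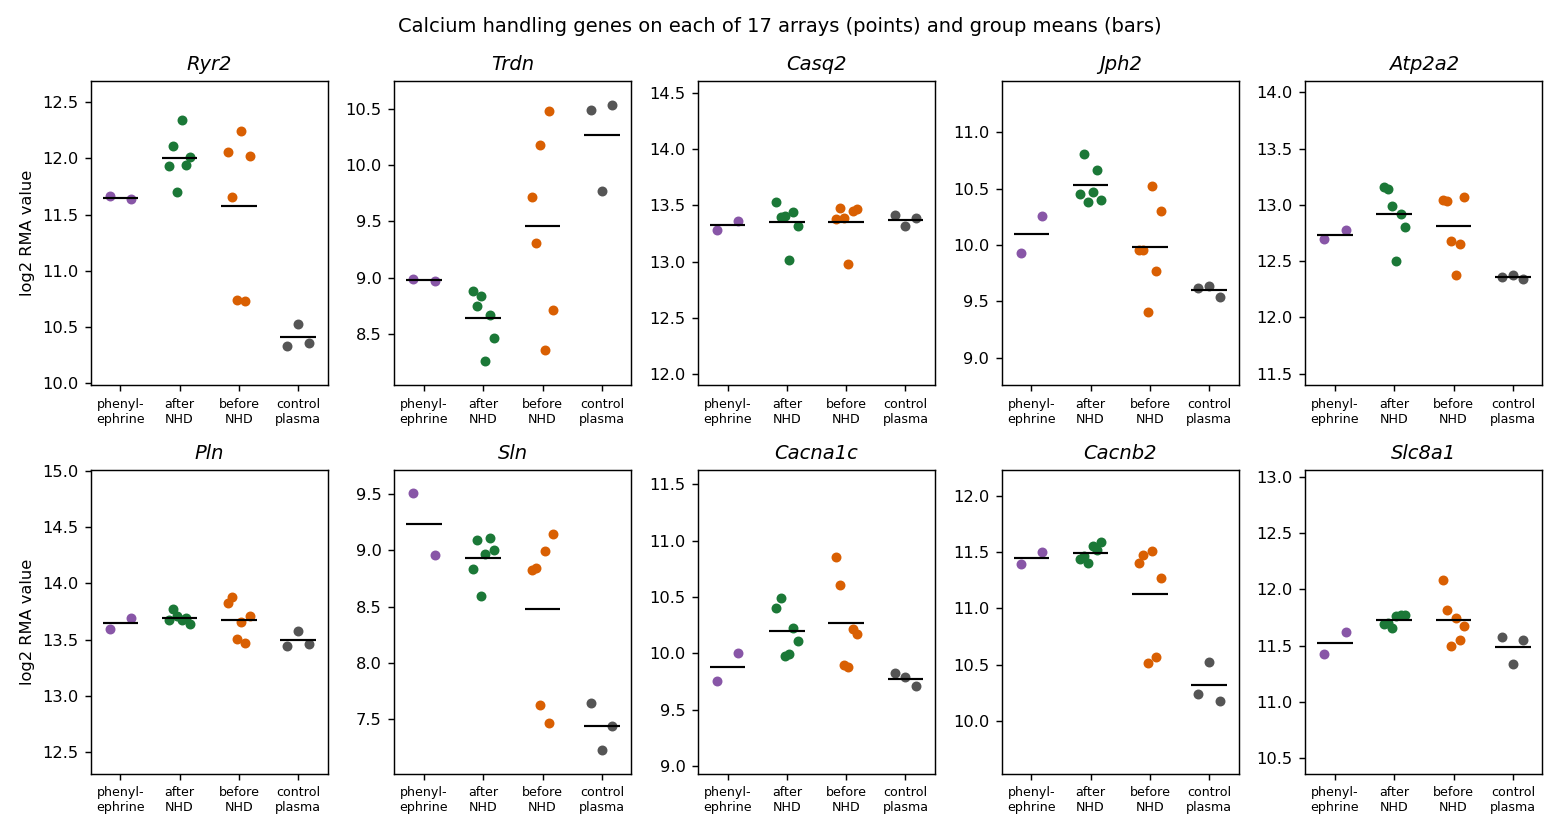
Log2 RMA level of each member (y axis, every panel spanning 2.7 log2 units) on each array (points), by group on the x axis, with bars at the group means. Ryr2, Sln, Cacnb2 and Jph2 lie higher and Trdn lower on all 6 after NHD arrays than on the 3 control plasma arrays. For these members, before NHD arrays spread over the range of both groups. Beyond it lie before NHD replicate 3 for Jph2, below all control plasma arrays, and replicate 6 for Sln, above all after NHD arrays.

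Among the genes of the release unit, Ryr2 and Jph2 were higher and Trdn was lower with plasma taken after NHD than with control plasma, and Casq2 did not pass the test in any comparison. Ryr2 encodes the ryanodine receptor, the release channel of the reticulum. It read 11.66 and 11.63 with phenylephrine, 11.70 to 12.34 (median 11.98) after NHD, 10.73 to 12.24 (median 11.84) before NHD, and 10.34, 10.53 and 10.36 with control plasma. All phenylephrine, after NHD and before NHD arrays were above all 3 control plasma arrays, and before NHD replicates 3 and 5 (10.74 and 10.73) lay nearest to them. Ryr2 rose by 1.60 ± 0.29 (log2, SE) after NHD against control plasma, a 3.025-fold difference (limma, adjusted p = 0.00105). Before NHD against control plasma it rose by 1.17 ± 0.29 (adjusted p = 0.0345), but this call was lost without any 1 of 7 arrays: before NHD replicates 1, 2, 4 and 6 or any control plasma replicate, with adjusted p up to 0.173.

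Jph2 encodes junctophilin 2, which holds the reticulum close to the cell membrane and its tubules. Its level was 9.93 and 10.26 with phenylephrine, 10.38 to 10.80 (median 10.46) after NHD, 9.41 to 10.52 (median 9.96) before NHD, and 9.62, 9.63 and 9.54 with control plasma. The after NHD arrays lay above all control plasma and both phenylephrine arrays, and before NHD arrays fell on both sides of the control range. Jph2 rose by 0.94 ± 0.18 after NHD against control plasma (limma, adjusted p = 0.00178). The difference was 0.39 ± 0.18 before NHD against control plasma (adjusted p = 0.199) and 0.50 ± 0.24 with phenylephrine against control plasma (adjusted p = 0.157).

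Trdn encodes triadin, a reticulum membrane protein that links calsequestrin to the ryanodine receptor. It was the member that ran opposite to Ryr2. Its level was 8.99 and 8.97 with phenylephrine, 8.26 to 8.88 (median 8.71) after NHD, 8.36 to 10.48 (median 9.51) before NHD, and 10.49, 9.77 and 10.53 with control plasma. All 6 after NHD arrays and both phenylephrine arrays lay below all 3 control plasma arrays, whereas before NHD replicates 3 and 5 (10.17 and 10.48) lay within the control range. Trdn fell by 1.62 ± 0.36 on the log2 scale after NHD against control plasma, to 0.325 of the control level (limma, adjusted p = 0.00368). Of 27 alternatives, 1 ended that call, a fit that also took in each array's SD (a log2 difference of -1.08, adjusted p = 0.0635). Before NHD against control plasma the difference was -0.81 ± 0.36 (adjusted p = 0.176).

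Casq2 encodes calsequestrin 2, the calcium-binding protein that stores calcium inside the reticulum. Its level was 13.28 and 13.36 with phenylephrine, 13.01 to 13.53 (median 13.40) after NHD, 12.98 to 13.47 (median 13.42) before NHD, and 13.41, 13.31 and 13.39 with control plasma. The groups overlapped in each comparison of plasma. The difference after NHD against control plasma was -0.02 ± 0.12 (limma, adjusted p = 0.920). Its lowest values were on before NHD replicate 4 and after NHD replicate 4 (12.98 and 13.01).

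Among the genes of calcium uptake, Sln and Atp2a2 were higher after NHD than with control plasma, and Pln did not pass the test. Atp2a2 encodes SERCA2, the pump that returns calcium to the reticulum. It read 12.70 and 12.77 with phenylephrine, 12.50 to 13.16 (median 12.95) after NHD, 12.37 to 13.07 (median 12.86) before NHD, and 12.36, 12.38 and 12.34 with control plasma. The control plasma arrays were the lowest, with before NHD replicate 4 (12.37) between them. Atp2a2 rose by 0.56 ± 0.16 after NHD against control plasma, 1.47-fold (limma, adjusted p = 0.0161), and this call was lost without control plasma replicate 1 or 3 (adjusted p = 0.0596 and 0.0590).

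Sln encodes sarcolipin, a small protein that lowers the pump's activity and is known mainly from atrial muscle in adult rodents. Its level was 9.51 and 8.96 with phenylephrine, 8.60 to 9.11 (median 8.99) after NHD, 7.47 to 9.14 (median 8.84) before NHD, and 7.64, 7.23 and 7.44 with control plasma. Both phenylephrine and all after NHD arrays were above all control plasma arrays, and before NHD replicates 3 and 5 (7.63 and 7.47) lay within the control range. Sln rose 2.82-fold after NHD against control plasma (SE 0.32 on the log2 scale, limma, adjusted p = 0.00278). Before NHD against control plasma the difference was 1.05 ± 0.32 (adjusted p = 0.0637), which passed the threshold without before NHD replicate 3 (adjusted p = 0.02725) or 5 (adjusted p = 0.00522). The 6 measured atrial markers averaged 8.44 and 8.45 with phenylephrine, 8.44 to 8.85 after NHD, 8.32 to 8.89 before NHD and 8.08 to 8.23 with control plasma. Of them 2 rose after NHD, 1 before NHD and 2 with phenylephrine, with Myl7, the atrial myosin light chain, up by 1.64 ± 0.32 after NHD (adjusted p = 0.00186) and by 1.36 ± 0.32 before NHD (adjusted p = 0.0315) against control plasma. Against control plasma, 33.0% of all genes passed after NHD, 5.84% before NHD and 23.6% with phenylephrine, so the atrial count after NHD is near that share. The before NHD call of Myl7 was lost in 8 of 27 alternatives, with adjusted p up to 0.1985. The part of atrial cells in the Sln difference was not tested.

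Pln encodes phospholamban, which restrains the pump until it is phosphorylated. Its level was 13.59 and 13.70 with phenylephrine, 13.64 to 13.77 (median 13.68) after NHD, 13.47 to 13.88 (median 13.68) before NHD, and 13.44, 13.58 and 13.46 with control plasma. The after NHD arrays were all above the control plasma arrays, by a small margin. The difference was 0.20 ± 0.09 after NHD against control plasma (limma, adjusted p = 0.125).

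Of the genes of the cell membrane, Cacnb2 was higher with plasma taken after NHD, with plasma taken before NHD and with phenylephrine than with control plasma, whereas Cacna1c and Slc8a1 did not pass in any comparison of the fit of all 4 groups. Cacnb2 encodes the beta-2 subunit that carries the L-type channel to the membrane and sets its gating. It read 11.40 and 11.50 with phenylephrine, 11.41 to 11.59 (median 11.49) after NHD, 10.51 to 11.51 (median 11.34) before NHD, and 10.24, 10.53 and 10.18 with control plasma. After NHD and phenylephrine arrays lay in a narrow band above the control plasma arrays, while before NHD replicates 3 and 5 (10.51 and 10.57) lay beside the highest control array. Cacnb2 rose by 1.18 ± 0.20 after NHD, 2.26-fold (limma, adjusted p = 0.000775), and by 0.81 ± 0.20 before NHD (adjusted p = 0.0345), each against control plasma. The before NHD call was lost without before NHD replicate 1, 2, 4 or 6 or without control plasma replicate 1 or 3, with adjusted p up to 0.175.

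Cacna1c encodes the pore of the cardiac L-type channel. Its level was 9.75 and 10.01 with phenylephrine, 9.98 to 10.49 (median 10.17) after NHD, 9.88 to 10.85 (median 10.19) before NHD, and 9.83, 9.79 and 9.71 with control plasma. All after NHD and before NHD arrays lay above the control plasma arrays, with before NHD replicates 1 and 2 (10.85 and 10.61) highest. The difference was 0.43 ± 0.19 after NHD (limma, adjusted p = 0.103) and 0.49 ± 0.19 before NHD (adjusted p = 0.121) against control plasma. With array weights it passed in both (adjusted p = 0.00845 after NHD and 0.0139 before NHD). Slc8a1 encodes the sodium-calcium exchanger, and its level was 11.43 and 11.62 with phenylephrine, 11.66 to 11.77 (median 11.73) after NHD, 11.50 to 12.08 (median 11.71) before NHD, and 11.58, 11.34 and 11.55 with control plasma. Its difference was 0.24 ± 0.11 both after NHD (adjusted p = 0.127) and before NHD (adjusted p = 0.196) against control plasma.

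**Figure D2:**
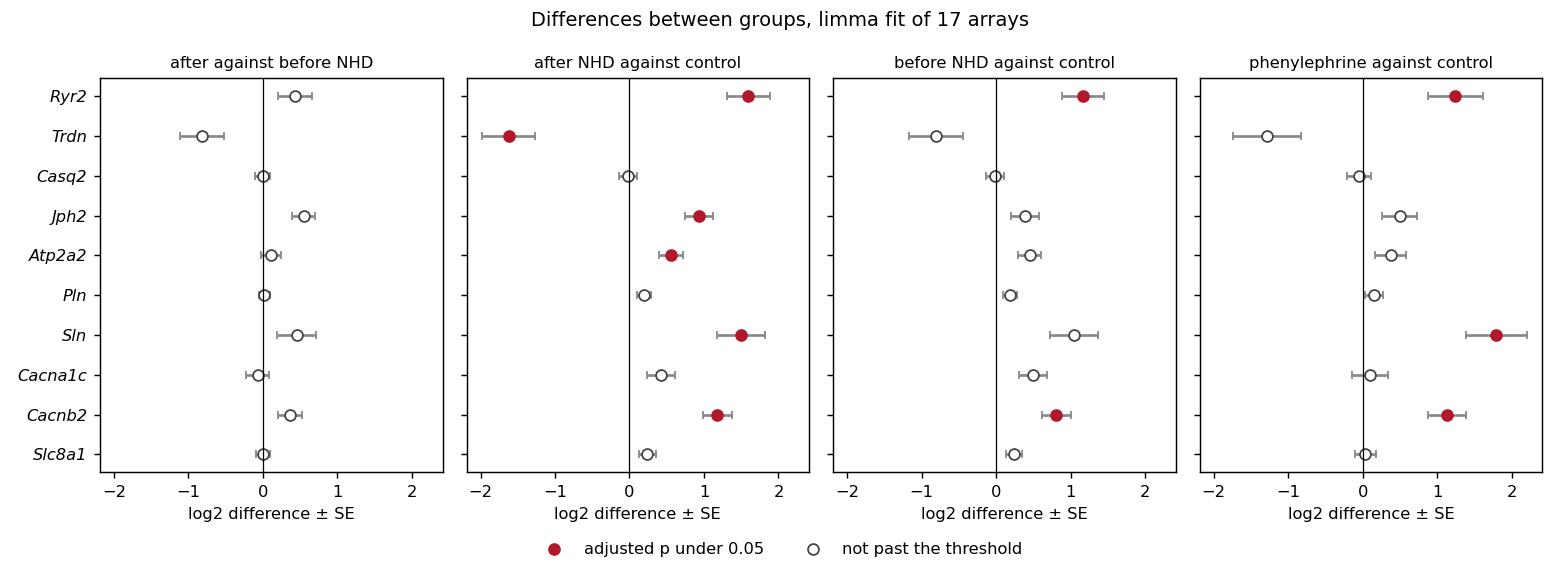
Log2 difference (x axis) with its SE for each member (y axis) in 4 comparisons, with filled red points for adjusted p under 0.05. Of 10 members, 6 pass after NHD against control plasma, 3 with phenylephrine, 2 before NHD and 0 after NHD against before NHD.

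After NHD against control plasma, 5 of 10 members rose and 1 fell, where 28.2% of all probe sets passed, 12.9% higher and 15.3% lower. Among the probe sets brighter than the median one, which include all 10 members, 41.2% passed. In this comparison 9 of 10 members had groups that did not overlap, all but Casq2, against 33.4% of all probe sets. The median member differed by 0.49 on the log2 scale, against -0.07 over all genes. Before NHD against control plasma, 2 of 10 members rose and 0 fell, where 4.93% of all probe sets (2.88% higher and 2.05% lower) and 8.09% of the brighter ones passed. With those 2, 8 of 10 had an unadjusted p under 0.05 (with 7324 of 29214 probe sets), and the median member differed by 0.42, against -0.05 over all genes. Groups did not overlap for Ryr2 and Cacna1c, against 8.39% of probe sets. The count was 0 without before NHD replicate 1, 2, 4 or 6 or control plasma replicate 1 or 3, 1 without control plasma replicate 2, and 4 without before NHD replicate 5, with Sln and Trdn added. Over all probe sets, 255 to 816 passed without before NHD replicate 1, 2, 4 or 6 (1439 in the main fit). The number was 0 without control plasma replicate 1 or 3, 1388 without control plasma replicate 2 and 5101 without before NHD replicate 5. These comparisons share the 3 control plasma arrays.

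After NHD against before NHD, the comparison between the uremic plasma groups, 0 of 10 members passed with limma, where 0.397% of all probe sets and 0.685% of the brighter ones did. Here 3 members had an unadjusted p under 0.05 (with 5402 probe sets): Jph2, Trdn and Cacnb2. Jph2 differed by 0.55 ± 0.15 (adjusted p = 0.0845, 95% interval 0.23 to 0.86), Trdn by -0.82 ± 0.29 (adjusted p = 0.149, interval -1.43 to -0.20) and Cacnb2 by 0.37 ± 0.16 (adjusted p = 0.231, interval 0.03 to 0.71). These 3 differences had the sign of those after NHD against control plasma, which shares the after NHD arrays. Jph2 and Trdn passed without before NHD replicate 4 (0.65, adjusted p = 0.00881, and -1.04, adjusted p = 0.0208) and without before NHD replicate 6 (0.61, adjusted p = 0.0231, and -0.96, adjusted p = 0.0487). Over all probe sets, 2648 passed without replicate 4 and 2690 without replicate 6, against 116 in the main fit. Ryr2 differed by 0.43 ± 0.23 (interval -0.06 to 0.92) and Sln by 0.45 ± 0.26. For Casq2, Pln and Atp2a2 the intervals ran from -0.21 to 0.21, from -0.14 to 0.18 and from -0.17 to 0.39. All 10 members overlapped between the groups, as did all but 0.644% of probe sets.

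With phenylephrine against control plasma, 3 of 10 members rose and 0 fell, where 18.7% of all probe sets (8.54% higher and 10.2% lower) and 29.5% of the brighter ones passed. These were Sln, by 1.80 ± 0.41 (limma, adjusted p = 0.0068), Cacnb2, by 1.13 ± 0.26 (adjusted p = 0.0065), and Ryr2, by 1.24 ± 0.37 (adjusted p = 0.0273). The group has 2 arrays: without replicate 1, 0 of the members passed, and without replicate 2, 1 did (Sln). Without control plasma replicate 1 or 3, 2 passed, and Ryr2 did not. Trdn differed by -1.285 ± 0.46 (adjusted p = 0.0629) and Jph2 by 0.50 ± 0.24. The Trdn difference passed in 9 of 27 alternatives, among them array weights (adjusted p = 0.000233) and only the groups compared (adjusted p = 0.00757). Groups did not overlap for 7 members, where 56.9% of probe sets did not. Phenylephrine passed for 0 members against after NHD, where 0.979% of probe sets did, and for 0 members against before NHD, where 4.34% did (0 members with an unadjusted p under 0.05 in either, against 3448 and 5605 probe sets). In the brighter probe sets 1.44% and 7.09% passed. Groups did not overlap for 4 members against after NHD (Ryr2, Trdn, Jph2 and Slc8a1, with 24.0% of probe sets) and for 0 against before NHD (16.5%). Among these differences were Jph2 against after NHD, -0.44 ± 0.21, and Sln against before NHD, 0.75 ± 0.37.

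Beside these results, other cell markers moved as follows. The 12 fibroblast markers averaged 9.83 to 10.07 on phenylephrine arrays, 7.55 to 9.70 after NHD, 7.30 to 9.81 before NHD and 8.33 to 8.45 with control plasma. Their median difference with phenylephrine against control plasma was 1.58, with 12 of 12 above 0, although S100a4 alone of them passed (1.84 ± 0.31, limma, adjusted p = 0.00132). After NHD against control plasma, 7 of the fibroblast markers were above 0 and 5 below (median 0.34). After NHD against before NHD, 11 were above 0 and 1 below (median 0.53). S100a4 alone of them passed in each, where 33.0% and 0.483% of all genes passed. S100a4, a calcium-binding protein found in fibroblasts, rose after NHD against control plasma (1.35 ± 0.24) and against before NHD (1.03 ± 0.20, adjusted p = 0.0400). The call against before NHD was lost in 15 of 27 alternatives, with adjusted p up to 0.135. Of 12 cardiomyocyte markers, 7 rose after NHD against control plasma, 3 with phenylephrine and 2 before NHD, where 41.2%, 29.5% and 8.09% of the brighter probe sets passed in either direction. Their mean difference after NHD against control plasma was 0.41, and beyond that mean Ryr2 differed by 1.19, Sln by 1.09, Cacnb2 by 0.77, Jph2 by 0.53, Atp2a2 by 0.15 and Trdn by -2.03. Of the remaining members, Cacna1c differed from that mean by 0.02, Slc8a1 by -0.17, Pln by -0.205 and Casq2 by -0.43. No SE was computed for these values. Smooth muscle markers averaged 10.41 to 10.52 with phenylephrine, 10.10 to 10.71 after NHD, 10.21 to 11.07 before NHD and 10.69 to 10.92 with control plasma. Cnn1 of the smooth muscle markers fell after NHD and Acta2 with phenylephrine, against control plasma. Of the endothelial, leukocyte and neural markers, 4 of 7, 3 of 9 and 3 of 5 were below the array median on every array. The endothelial marker Kdr rose before NHD, after NHD and with phenylephrine against control plasma, calls lost in 15, 3 and 11 of 27 alternatives. Cdh5 rose with phenylephrine against each other group. All 7 endothelial markers were above 0 with phenylephrine against either uremic plasma group. Against control plasma, 5 of 7 were below 0 before NHD and 6 of 7 after NHD. The part of these cells in the members' differences was not tested.

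**Figure D3:**
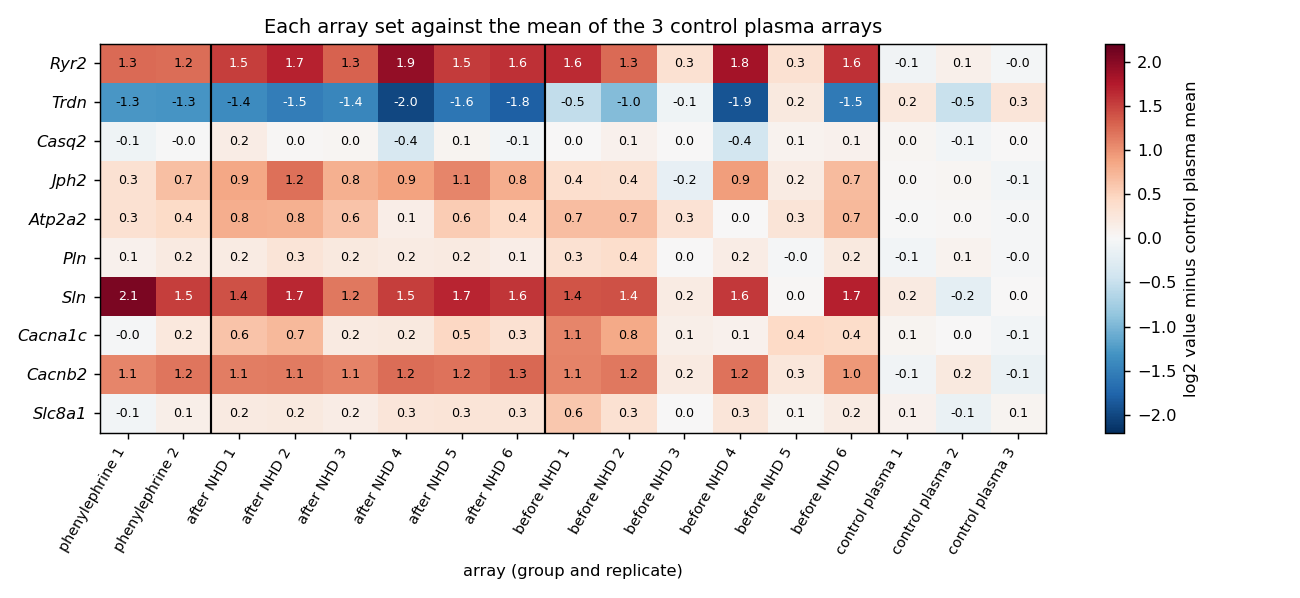
Log2 level of each member (rows) on each array (columns), minus the mean of the 3 control plasma arrays. Ryr2, Sln and Cacnb2 are above and Trdn below control on all phenylephrine and after NHD arrays, and before NHD replicates 3 and 5 lie close to control for these members.

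Over 17 arrays Ryr2 ran with Cacnb2 (r = 0.96), Sln (r = 0.91) and Jph2 (r = 0.86), and opposite to Trdn (r = -0.90). After each group's mean was removed, r was 0.91 for Ryr2 with Cacnb2, 0.89 with Sln and -0.84 with Trdn. These deviations were widest before NHD, where the SD of Ryr2 was 0.676, against 0.210 after NHD. Among the before NHD arrays alone r was 0.94, 0.96 and -0.86, and the other groups were not taken alone. Atp2a2 did not follow Ryr2 within groups (r = 0.03), and ran there with Casq2 (r = 0.83) and Cacna1c (r = 0.73). Ryr2, Sln, Cacnb2 and Trdn also followed the first principal component (r = 0.84, 0.88, 0.87 and -0.90), which takes in the array as a whole, whereas Casq2 did not (r = -0.11). These are descriptions over arrays that share groups, normalisation and culture. The spread within groups was widest before NHD: the median SD of the members was 0.0727 with phenylephrine (2 arrays), 0.187 after NHD, 0.391 before NHD and 0.0886 with control plasma, where all probe sets gave 0.0941, 0.160, 0.249 and 0.139.

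By the same measure over 17 arrays, the genes most like Ryr2 were Hexd (r = 0.99), Dusp7 (r = 0.98) and Ank3 (r = 0.98), and those most like Trdn were Arsk (r = 0.98), Mzt2b (r = 0.97) and C13h2orf76 (r = 0.97). Cacnb2 was most like Ehd4 (r = 0.98), Adra1a, the alpha-1A adrenergic receptor (r = 0.98), and Dnajc18 (r = 0.97). For Atp2a2 the closest were Ndufs4, Lamb2 and Egln1 (r = 0.98, 0.96 and 0.95), and within groups Hrc, which binds calcium in the reticulum (r = 0.97), Ndufs4 (r = 0.97) and Tmem38a, a reticulum cation channel (r = 0.97). For Casq2 they were Rcan2, Trim72 and Rab3a (r = 0.93, 0.93 and 0.92). The loosest match was that of Slc8a1, whose closest gene was Hipk2 (r = 0.86). These genes were the highest of 14506 by this measure.

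Beyond the 10 members, 90 further calcium handling genes were listed in 5 lists, of which 76 were measured. After NHD against control plasma 22 rose and 10 fell (33.0% of all genes passed), with phenylephrine 18 rose and 9 fell (23.6%), and before NHD 11 rose and 1 fell (5.84%), each against control plasma. After NHD against before NHD 0 of the 76 passed, with 0.483% of all genes. The before NHD count of 12 fell to 0 without control plasma replicate 1 or 3, with only the groups compared or with each array's SD in the fit, lay between 3 and 7 without before NHD replicate 1, 2 or 6, any phenylephrine array or any after NHD array other than replicate 4, and was 22 without before NHD replicate 5. The phenylephrine count of 27 fell to 12 without either of its arrays and to 17 without control plasma replicate 1 or 3. After NHD against before NHD, 15 passed without before NHD replicate 4, 12 without before NHD replicate 6 and 4 without after NHD replicate 4. Over all probe sets 2648, 2690 and 641 passed in the same order, against 116 in the main fit. Before NHD against control plasma, 5101 probe sets passed without before NHD replicate 5 and 0 without control plasma replicate 1 or 3 (1439 in the main fit).

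Of 15 measured genes of the release unit and calcium store, 4 rose and 2 fell after NHD, 1 rose before NHD, and 5 rose and 2 fell with phenylephrine, against control plasma. Over all genes, 33.0% passed after NHD, 5.84% before NHD and 23.6% with phenylephrine. Fkbp1b, which binds and steadies the ryanodine receptor, read 8.19 and 8.35 with phenylephrine, 7.55 to 8.83 (median 8.60) after NHD, 7.02 to 8.78 (median 7.63) before NHD, and averaged 6.88 ± 0.11 with control plasma (SD, n = 3). It rose by 1.54 ± 0.30 after NHD (limma, adjusted p = 0.00178). Jph1, the junctophilin best known from skeletal muscle, read 8.45 and 8.69 with phenylephrine, 9.10 to 9.49 after NHD, 9.13 to 10.25 before NHD, and 10.24, 10.43 and 10.11 with control plasma. It fell by 1.02 ± 0.19 after NHD and by 1.69 ± 0.25 with phenylephrine, where Jph2 had the opposite sign. Tmem38b, a counter-ion channel of the reticulum, fell by 1.33 ± 0.24 after NHD, and Itpr1, an inositol trisphosphate receptor, rose by 0.65 ± 0.13 after NHD, 0.77 ± 0.13 before NHD and 0.83 ± 0.17 with phenylephrine.

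Among 11 measured pumps and pump regulators, 2 rose and 1 fell both after NHD and with phenylephrine, against control plasma. Of all genes, 33.0% and 23.6% passed in these comparisons. S100a1, a calcium sensor that raises the activity of SERCA2 and the ryanodine receptor, read 11.32 and 11.37 with phenylephrine, 10.13 to 11.30 (median 10.94) after NHD, 8.96 to 11.11 (median 9.70) before NHD, and 9.04, 8.95 and 9.07 with control plasma. It rose by 1.85 ± 0.34 after NHD (limma, adjusted p = 0.00128) and by 2.32 ± 0.44 with phenylephrine, against control plasma. Atp2b4, a pump of the cell membrane that expels calcium, rose by 1.88 ± 0.35 after NHD and 2.56 ± 0.46 with phenylephrine. Against before NHD, phenylephrine gave 7 of the 76 genes, 4 higher and 3 lower (5.77% of all genes passed), including Atp2b4 (1.86 ± 0.41) and S100a1 (1.51 ± 0.40) higher and Jph1 (-1.18 ± 0.22) lower, and the number fell to 0 without either phenylephrine array and was 11 without before NHD replicate 4.

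Of 20 measured genes of calcium entry, 4 rose and 4 fell after NHD, 1 rose and 1 fell before NHD, and 2 rose and 4 fell with phenylephrine, against control plasma. The shares over all genes were 33.0%, 5.84% and 23.6%. Rrad and Gem, small GTPases that both restrain L-type channels, moved in opposite directions: Rrad rose by 2.33 ± 0.41 and Gem fell by 1.60 ± 0.32 after NHD (limma, adjusted p = 0.00104 and 0.00206). Before NHD, Rrad rose by 1.60 ± 0.41 and Gem fell by 1.18 ± 0.32, calls that were lost in 14 (Rrad) and 17 (Gem) of 27 alternatives. Cacna2d1, the alpha-2-delta subunit that helps bring the L-type channel to the membrane, read 10.33 and 10.29 with phenylephrine, 9.85 to 10.23 after NHD, 10.01 to 11.60 before NHD, and 11.50, 11.35 and 11.41 with control plasma. It fell by 1.38 ± 0.31 after NHD (adjusted p = 0.00371, and 0.0640 in the fit that took in each array's SD). Of the other alpha-2-delta genes measured, named after their values were seen, Cacna2d2 differed by 0.61 ± 0.40 (adjusted p = 0.273) and Cacna2d3 by -0.10 ± 0.13 (adjusted p = 0.607) after NHD against control plasma.

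Of 7 measured mitochondrial calcium genes, 3 rose and 1 fell after NHD, 3 rose before NHD, and 2 rose and 1 fell with phenylephrine, against control plasma. Over all genes, 33.0% passed after NHD, 5.84% before NHD and 23.6% with phenylephrine. Vdac2, a channel of the outer mitochondrial membrane, rose by 1.45 ± 0.18 after NHD, 1.11 ± 0.18 before NHD and 1.31 ± 0.24 with phenylephrine, and Letm1, an ion exchanger of the inner membrane, by 1.29 ± 0.23 after NHD. The before NHD calls of Vdac2, Letm1 and Vdac1 were lost in 4, 16 and 18 of 27 alternatives. Of 23 measured kinases, phosphatases and their anchors, 9 rose and 2 fell after NHD, 6 rose before NHD, and 7 rose and 1 fell with phenylephrine. Prkar1a, a regulatory subunit of protein kinase A, rose by 1.35 ± 0.19 after NHD, Ppp3cb, a catalytic subunit of calcineurin, by 1.67 ± 0.24, and Akap7, which anchors protein kinase A, by 1.56 ± 0.26. Ppp3cb also rose before NHD, by 1.31 ± 0.24.

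**Figure D4:**
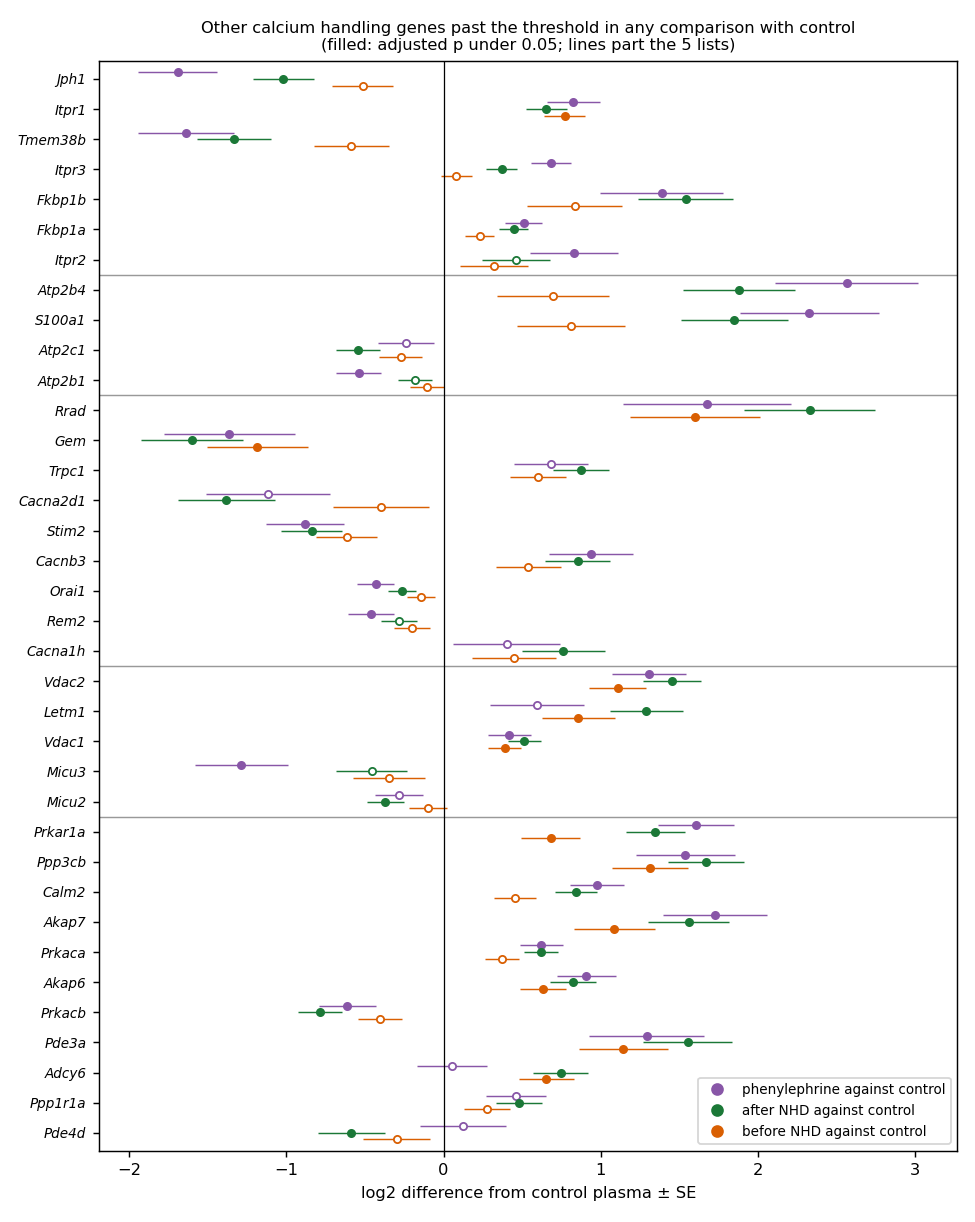
Log2 difference against control plasma (x axis) for the 36 further calcium handling genes that passed in any of 3 comparisons (y axis), with filled points for adjusted p under 0.05 and lines between the 5 lists. S100a1, Atp2b4 and Rrad lie farthest to the right, and Jph1, Tmem38b and Gem are among those farthest to the left.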

How the data were processed

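Each deposited log2 value is 1 probe set on 1 array. The submitters' processing notes name RMA as the authors' method, and its version is not given in the sources used. Biotin-labelled cRNA was hybridised to Affymetrix arrays, per the labels' protocols, whose number limits the precision. Probe sets were named through the platform table: 15310 have 1 symbol, 323 several and 13581 none, and 15279 were matched to RefSeq genes (assembly GRCr8). No sample or value was left out. All 17 arrays were fitted in 1 model of 4 groups with lmFit and eBayes of limma 3.58.1 (R 4.3.3), two-sided, with Benjamini-Hochberg adjustment over 29214 probe sets and a threshold of 0.05. The fit was run on simulated data with independent errors and the same SD in all groups for a probe set. That setting cannot show how the fit behaves with the unequal spread of these groups. A gene with several probe sets is read from the one with the highest mean.

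In 2 titles of the before NHD group a pair of replicate numbers is given, and the last was used. The rule for named genes takes all 10 members, up to 5 genes of each other calcium list per comparison by smallest p among those that passed, up to 4 markers, and the 3 genes most like a member. The members and lists were chosen with earlier results of these data known. Alternatives changed the probe sets tested, the normalisation, the variance prior, weights, terms in the fit, the minimum fold and the arrays included.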

Additional observations from a re-analysis of the deposited data

Results flagged for a closer look

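Casq2 on before NHD replicate 4 had a log2 level of 12.98, while the other five before NHD arrays lay between 13.38 and 13.47. It was 1 of 20 groups of 6 arrays tested (10 members, after NHD and before NHD) in which the lowest or highest array stood apart by Dixon's 95% criterion, and chance flags about 1 in 20 such groups. After NHD replicate 4 had the lowest Casq2 level of its group, 13.01, and is the array most like before NHD replicate 4. Atp2a2 was also lowest of its group on both arrays (12.50 after NHD and 12.37 before NHD). Without before NHD replicate 4, Casq2 differed by -0.0795 between after NHD and before NHD, and it did not pass the test.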

How the results depend on the processing

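The 6 comparisons were recomputed under 27 alternatives each, giving 1620 member values: 1497 kept direction and side of the threshold, 30 lost a call, 41 gained one and 52 changed sign, all of the last near 0 and never called. Part of these values could change little. Leaving out an array outside a comparison keeps its difference as it was, and the 1.5-fold minimum reuses the main fit. Ryr2, Sln, Jph2 and Cacnb2 passed after NHD against control plasma in all 27. The number of members past the threshold before NHD against control plasma (2) was 0 with only the groups compared, 7 with array weights, 0 in a fit that took in each array's SD and 0 to 4 with single arrays left out. After NHD against before NHD (0) it was 2 with array weights, 2 without both samples numbered 4 and 0 to 2 with single arrays left out. With phenylephrine against control plasma (3) it was 6 with only the groups compared, 6 with array weights and 0 to 4 with single arrays left out. After NHD against control plasma (6) it was 5 to 6 with single arrays left out, and Atp2a2 was also lost with the array SD term (adjusted p = 0.0755) and a 1.5-fold minimum. Phenylephrine against after NHD (0) gave 1 with array weights, Jph2 (-0.45, adjusted p = 0.0483). Calls over all 29214 probe sets moved too. With array weights they were 6929 before NHD against control plasma (1439 in the main fit) and 3186 after NHD against before NHD (116). For phenylephrine they were 12602 against control plasma (5471) and 2918 against after NHD (286). Only the groups compared gave 0 before NHD and 9072 with phenylephrine against control plasma, and the array SD term 2 before NHD. Without the samples numbered 4, 2677 passed after NHD against before NHD. The cause of these differences was not tested.

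With the replicate number as a block, 4 members passed before NHD against control plasma and 1 with phenylephrine against before NHD (Cacna1c, -0.68). The block also brought Cacna1c past the threshold after NHD (0.56, adjusted p = 0.0106) and before NHD (0.63, adjusted p = 0.0187), and Trdn with phenylephrine (-1.16, adjusted p = 0.0201), against control plasma. With array weights Pln passed after NHD and before NHD against control plasma (adjusted p = 0.0116 and 0.0330), and Slc8a1 after NHD (adjusted p = 0.0430). Over all probe sets the block gave 316 calls after NHD against before NHD (116 without it), 3329 before NHD against control plasma (1439), 7326 with phenylephrine against control plasma (5471) and 2447 with phenylephrine against before NHD (1268). Correlations of the deviations of same-numbered arrays, after NHD against before NHD, were 0.10, 0.42, 0.60, 0.57, -0.03 and 0.25. They were not set against those of differently numbered arrays, so they cannot settle whether the numbers pair the samples. Signs turned with the block for Casq2 (0.0556 after NHD and 0.0591 before NHD), Slc8a1 (-0.0075) and Cacna1c (-0.0528) with phenylephrine, all against control plasma, and for Ryr2 with phenylephrine against before NHD (-0.0031).

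Other sign changes were of Casq2 after NHD against before NHD (0.0035 with the array SD term, 0.0085 with array weights), Casq2 after NHD against control plasma (0.0052, 0.0144, and 0.0475 without the samples numbered 4), Casq2 before NHD against control plasma (0.0017, 0.0059, 0.0593, and 0.0026 with a second quantile normalisation), Pln after NHD against before NHD (-0.0365 with array weights, -0.0073 with a second quantile normalisation), Slc8a1 after NHD against before NHD (0.0294 with the array SD term) and Slc8a1 with phenylephrine against control plasma (-0.0036 with array weights). With single arrays left out the ranges that crossed 0 were, after NHD against before NHD, -0.0217 to 0.0599 (Pln), -0.0795 to 0.0642 (Casq2), -0.0482 to 0.0687 (Slc8a1) and -0.15 to 0.0477 (Cacna1c). Against control plasma they were -0.0563 to 0.0475 (Casq2 after NHD), -0.0453 to 0.0593 (Casq2 before NHD), -0.0589 to 0.13 (Slc8a1, phenylephrine) and -0.0237 to 0.23 (Cacna1c, phenylephrine). With phenylephrine against before NHD they were -0.10 to 0.21 (Ryr2), -0.08 to 0.0211 (Pln), -0.11 to 0.0024 (Casq2) and -0.0552 to 0.27 (Jph2), and against after NHD -0.10 to 0.0019 (Pln), -0.10 to 0.0059 (Casq2) and -0.10 to 0.0049 (Cacnb2). Where an arm kept 1 array, its spread was assumed to be like that of the other groups. Each member has 1 probe set, so the alternative with another probe set of a member was not run.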
